A study of Mus musculus with 2 samples.

Results

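The genes of lysosomal acidification and proteolysis were followed in Gr-1+ CD11b+ cells: the cathepsins, the subunits of the vacuolar ATPase and its accessory proteins. They were taken as every measured symbol that begins with Cts, Atp6v or Atp6ap, except Ctsg, the granule serine protease cathepsin G. The rule gave 49 of the 24346 measured symbols. They were 10 cathepsins of the placental cluster and its relatives, 13 other cathepsins and 26 vacuolar ATPase genes. The 13 are called lysosomal cathepsins below as a group name, which does not state where each protein resides.

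The RNA came from Gr-1+ CD11b+ cells, surface markers that neutrophils and monocytes share, isolated from BALB/c mice given 3% dextran sulfate sodium for 6 days, a treatment that inflames the colon. In the ATPγS library (n = 1) the cells were stimulated with ATPγS, a slowly hydrolysed ATP analogue that acts on nucleotide receptors, and in the control library (n = 1) without it. The protocol gives 2.5 hours and 100 µM, where the prefix of the molar unit is stored as a symbol-font code that was read as the Greek mu. Both groups therefore share the strain and the colitis treatment, and no library from untreated mice was analysed here. The labels name neither the tissue the cells came from nor the age or number of the animals. Each value below is the FPKM level of 1 library, per length of transcript and by the depth of its library, so levels can be set side by side between genes. With 1 library per group no difference has a replicate check and no p-value was computed. Intervals are 95% exact (Clopper-Pearson) intervals of the ratio of ATPγS over control and cover counting error only. The share of all genes whose interval leaves out 1 was not computed, so counts of intervals below have no background.

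Cathepsins are proteases that mature in acid compartments. Most are cysteine proteases related to papain, cathepsins D and E are aspartic proteases and cathepsin A is a serine carboxypeptidase. The vacuolar ATPase is the rotary pump that makes those compartments acid. Its cytosolic V1 sector hydrolyses ATP, with catalytic A and regulatory B subunits held by the C, E, G and H stalk parts and the D and F rotor. Its membrane V0 sector moves the protons through a ring of c subunits against the a subunit, whose isoforms direct the pump to different membranes. The accessory proteins Ac45 (Atp6ap1) and the prorenin receptor (Atp6ap2) take part in its assembly. In macrophages and neutrophils these genes serve phagosomes, granules and antigen processing, and the factors TFEB and TFE3 are known to switch many of them on together.

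The recovered depth was 2848000 fragments in the ATPγS library and 2133000 in the control library, and 21282 and 20485 symbols were listed above 0. Among the marker lists, that of neutrophils had the highest levels in both libraries. S100a8, a calcium-binding granulocyte protein, was at 22410 and 20604 FPKM, and its partner S100a9 at 14942 and 13776 FPKM in the ATPγS and control libraries. Of the 12 neutrophil markers listed, 11 were measured, with a summed level of 41662 FPKM in the ATPγS library and 38752 FPKM in the control library. Markers of other cell types were also present, among them cells that should lack Gr-1 or CD11b. The 10 B and plasma cell markers summed to 948 and 1343 FPKM, with Jchain at 643 and 930 FPKM and Cd79a at 85.9 and 133 FPKM. The 8 fibroblast and endothelial markers summed to 982 and 967 FPKM in the ATPγS and control libraries, with Dcn at 587 and 605 FPKM and Col3a1 at 241 and 227 FPKM. The 10 monocyte markers summed to 557 and 540 FPKM, led by Treml4 at 239 and 198 FPKM and Ms4a6c at 141 and 146 FPKM. The 7 measured erythroid and platelet markers summed to 721 and 777 FPKM in the ATPγS and control libraries, with Hba-a1 at 616 and 725 FPKM and Pf4 at 52.9 and 13.6 FPKM. Epithelial markers (7) summed to 90.6 and 114 FPKM, with Krt8 at 32.7 and 51.8 FPKM and Krt18 at 16.0 and 21.7 FPKM. Mast cell, basophil and eosinophil markers (10) summed to 68.5 and 92.3 FPKM in the ATPγS and control libraries, with Kit at 14.0 and 27.8 FPKM and Siglecf at 13.6 and 19.3 FPKM. No marker of any list was at 0 in both libraries.

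Lysosomal cathepsins were abundant in both libraries and differed little at high levels. The most abundant was Ctsd (cathepsin D, an aspartic endopeptidase of the lysosome), at 3036 FPKM in the ATPγS library and 2632 FPKM in the control library, 16th and 21st among all symbols. Next came Ctsz (cathepsin Z, a carboxypeptidase), at 1173 FPKM with ATPγS and 998 FPKM without it, and Ctsb (cathepsin B), at 652 FPKM in the ATPγS library and 582 FPKM in the control library. As deposited, these were the 3 cathepsins whose interval lay above 1: 1.15-fold (1.13 to 1.18) for Ctsd, 1.18-fold (1.12 to 1.23) for Ctsz and 1.12-fold (1.09 to 1.16) for Ctsb. Of the exon bases of Ctsd, 34.4% are also annotated to the same-strand gene Gm49369, and 12.8% of those of Ctsb lie opposite Fdft1, so fragments there cannot be assigned to a single gene.

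**Figure D1:**
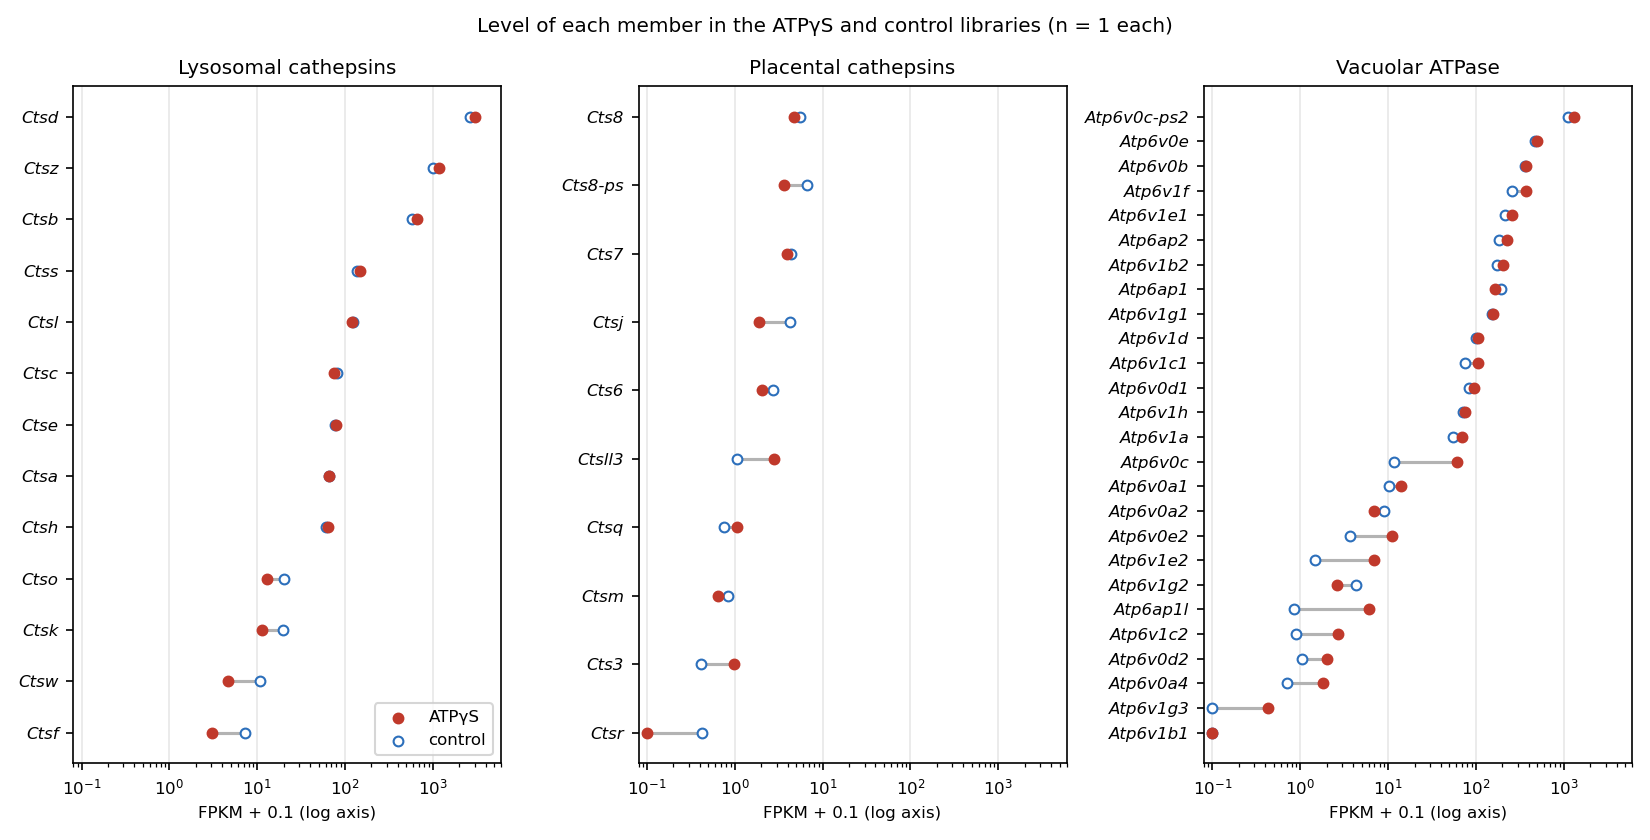
FPKM level plus 0.1 (log axis) of the 49 members in the ATPγS and control libraries (n = 1 each), grouped as lysosomal cathepsins, placental cathepsins and vacuolar ATPase genes. Ctsd stands highest at 3036 FPKM in the ATPγS library and 2632 FPKM in the control library, while no placental cathepsin exceeds 6.5 FPKM.

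The other 6 cathepsins at a mean of at least 20 FPKM had intervals that include 1. Ctss (cathepsin S, which trims the invariant chain in antigen-presenting cells) was at 150 FPKM in the ATPγS library and 135 FPKM in the control library, 1.11-fold (0.97 to 1.26). Ctsl (cathepsin L) was at 121 and 122 FPKM, Ctsc (dipeptidyl peptidase 1, which activates granule serine proteases) at 74.2 and 81.9 FPKM, and Ctse (cathepsin E) at 78.7 and 76.9 FPKM in the ATPγS and control libraries. Ctsh (an aminopeptidase) was at 64.2 and 61.1 FPKM, and Ctsa (the protective protein of beta-galactosidase and neuraminidase) at 65.1 and 65.4 FPKM in the ATPγS and control libraries. In the values as deposited, no difference in any of these 6 genes could be detected at this depth. Rescaling a library moves the intervals too, and either rescaling used below would lift the Ctss interval above 1. Counting all annotated exons, Ctsl lies partly opposite Gm47123 (26.8% of its exon bases) and Ctsa opposite Pltp (10.5%). The library preparation does not mark strand. Of the 1922 50-base windows of the Ctsl transcript used for its length, however, 0 occur in another gene.

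All 4 cathepsins under 20 FPKM were lower in the ATPγS library, each with an interval below 1. Their means lay at 5 to 20 FPKM, where 46.6% of all 6412 genes had a log2 ratio above 0. How many of those genes had an interval below 1 was not counted. Ctso (cathepsin O) was at 12.96 FPKM with ATPγS and 19.9 FPKM without it, 0.65-fold (0.51 to 0.83). Ctsk (cathepsin K, the collagen-degrading protease of osteoclasts, also made by fibroblasts) was at 11.3 FPKM in the ATPγS library and 19.8 FPKM in the control library, 0.57-fold (0.39 to 0.85). The 8 fibroblast and endothelial markers given above, dominated by Dcn and Col3a1, summed to 1.01-fold of the control level, and their part in the Ctsk level was not tested. Ctsw (cathepsin W, known from cytotoxic T and NK cells) was at 4.52 FPKM with ATPγS and 10.7 FPKM without it, 0.42-fold (0.22 to 0.82), and Ctsf (cathepsin F) at 2.92 and 7.19 FPKM, 0.41-fold (0.20 to 0.76). Both rest on few fragments, an estimated 16 in the ATPγS library for each, against 28 for Ctsw and 30 for Ctsf in the control library. Summed, these 4 genes were at 31.7 FPKM in the ATPγS library and 57.6 FPKM in the control library, while the 9 higher ones were at 5414 and 4754 FPKM.

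Most markers of T and NK cells were, like Ctsw, lower in the ATPγS library. Of 15 tested, 4 had a log2 ratio above 0 and 11 below, with a median of -0.80. By count, 1 passed 2-fold upward and 6 downward, where 13.8% and 9.91% of all genes passed. Their summed level was 247 FPKM in the ATPγS library and 426 FPKM in the control library, with single markers between 0.147 and 66.1 FPKM and between 0.75 and 76.5 FPKM. The 2 most abundant differed in direction: Gzma, a granzyme, was at 66.1 FPKM with ATPγS and 45.8 FPKM without it, and Cd2, a T and NK cell adhesion receptor, at 33.8 and 62.6 FPKM. Nkg7, a protein of cytotoxic granules, was at 2.71 FPKM in the ATPγS library and 22.4 FPKM in the control library, and the perforin gene Prf1 at 0.147 and 2.75 FPKM. Not every other gene of the list was lower. Gzmb, another granzyme, was at 35.6 and 30.4 FPKM, with an interval of 0.90 to 1.54 that includes 1. Klrb1c, the NK1.1 receptor, was at 2.70 and 0.75 FPKM in the ATPγS and control libraries. Ncr1 (6.07 and 13.9 FPKM), Il2rb (17.1 and 22.7 FPKM) and Eomes (1.81 and 3.41 FPKM) were lower with ATPγS. The genes from Nkg7 on were picked after their values were seen. Their part in the lower Ctsw level was not tested, and in such a bulk sample fewer cells of a type and less RNA per cell cannot be told apart.

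By count, 0 of the 13 lysosomal cathepsins passed 2-fold upward on the scale log2((ATPγS FPKM + 1) / (control FPKM + 1)) and 2 (Ctsw and Ctsf) passed it downward. Among all 18311 genes at a mean of at least 1 FPKM, 13.8% passed upward and 9.91% downward, and 50.4% had a log2 ratio above 0 with a median of 0.01. Counts near such shares are no result about the cathepsins. Their median log2 ratio was -0.01 and 6 of 13 were above 0. Among the 9 at 20 FPKM or more, 6 were above 0 with a median of 0.07, where 39.3% of all 3480 genes at that level were above 0 with a median of -0.12. Rescaling the libraries to a common median shifted the median of all genes at 10 FPKM or more by 0.12 on the log2 scale. It turned Ctsa and Ctsl to above 0, which made 8 of 9. After that rescaling, 1762 of all 3480 genes at 20 FPKM or more were above 0, with a median of 0.01.

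Summed by catalytic type, the cysteine cathepsins were at 2266 FPKM in the ATPγS library and 2038 FPKM in the control library, 1.11-fold. The aspartic pair summed to 3115 FPKM with ATPγS and 2709 FPKM without it, 1.15-fold. Markers of macrophages and dendritic cells, which carry much cathepsin RNA, had a summed level of 4378 FPKM in the ATPγS library and 3913 FPKM in the control library over 14 genes, 1.12-fold, with single markers between 0.198 and 2825 FPKM and between 0.946 and 2647 FPKM. Of these, 2 passed 2-fold upward and 1 downward, where 13.8% and 9.91% of all genes passed. Their median log2 ratio was 0.47, with 12 above 0 and 2 below. Most of the sum came from Cd74 (the invariant chain), at 2825 and 2647 FPKM in the ATPγS and control libraries. Apoe (apolipoprotein E) was at 716 and 611 FPKM in these libraries. Their part in the cathepsin levels was not tested.

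**Figure D2:**
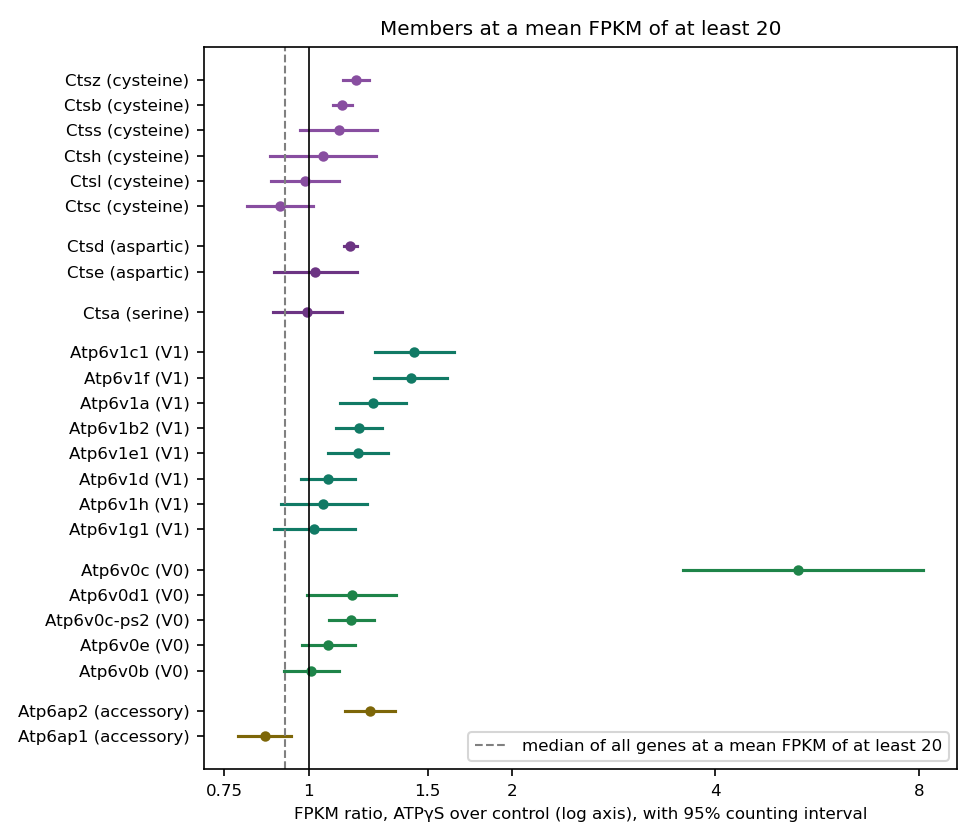
Ratio of ATPγS over control FPKM (log axis) of the members at a mean of at least 20 FPKM, as points, with 95% exact counting intervals as bars and the median of all genes at that level as a dashed line. Ctsd, Ctsz and Ctsb lie above 1 with narrow intervals, the 8 V1 genes between 1.02 and 1.43, Atp6ap1 at 0.86 and Atp6v0c at 5.30.

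The cathepsins of the placental cluster on chromosome 13, close relatives of cathepsin L that are known to be made in the mouse placenta, gave the level at which family members with no known source in blood cells were listed. In the ATPγS library their levels lay between 0 and 4.63 FPKM and in the control library between 0.314 and 6.5 FPKM. Cts8 was at 4.63 and 5.40 FPKM, Cts7 at 3.81 and 4.24 FPKM, Ctsj at 1.79 and 4.11 FPKM and Cts6 at 1.95 and 2.61 FPKM in the ATPγS and control libraries. Ctsll3 was the only tested gene of this group that was higher with ATPγS, at 2.67 FPKM against 0.971 FPKM in the control library. Values for the pseudogene Cts8-ps were 3.51 FPKM with ATPγS and 6.5 FPKM without it, with an interval of 0.35 to 0.81 that left out 1. More than 50% of the exon bases of Cts8 (51.5%) and Cts8-ps (55.5%) are also annotated to Gm49398.

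Ctsq (0.971 and 0.648 FPKM), Ctsm (0.547 and 0.731 FPKM), Cts3 (0.882 and 0.314 FPKM) and Ctsr (0 and 0.323 FPKM) were under a mean of 1 FPKM in the ATPγS and control libraries. None of the 6 tested placental genes passed 2-fold in either direction, and their summed level over all 10 was 20.8 FPKM with ATPγS and 25.8 FPKM without it. The highest placental value, 6.5 FPKM, was not exceeded in either library by 7 of the other members, all of them vacuolar ATPase genes. Another 4 (Atp6v0e2, Atp6v1e2, Ctsf and Ctsw) exceeded it in 1 library only, and 28 did so in both.

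Of the 26 vacuolar ATPase genes, 24 had a mean of at least 1 FPKM, and 4 of these passed 2-fold upward (Atp6v0c, Atp6v0e2, Atp6v1e2 and Atp6ap1l) and 0 downward, beside the 13.8% and 9.91% of all genes. The higher share, 4 of 24, is near that background, and 3 of the 4 genes were under 20 FPKM. At a mean of 1 to 5 FPKM, 21.2% of all genes passed 2-fold upward, 10.9% passed it downward and 58% had a log2 ratio above 0. At 5 to 20 FPKM these shares were 10.3%, 11.2% and 46.6%, and at 20 FPKM or more 2.3%, 5% and 39.3%. Of the 15 vacuolar ATPase genes at 20 FPKM or more, 14 had a log2 ratio above 0 with a median of 0.21, where 39.3% of all genes at that level were above 0. As deposited, the interval lay above 1 for 8 of the 15, below 1 for 1 and included 1 for 6. Intervals were not counted over all genes at that level, so these counts have no background and are no result about the pump. The counts for the 15 also depend on the scaling of the libraries. Rescaled to equal summed FPKM, the intervals of Atp6v0d1, Atp6v0e and Atp6v1d would also lie above 1. Rescaled to a common median, the Atp6ap1 interval would include 1. Summed over all 26 genes the levels were 4119 FPKM in the ATPγS library and 3566 FPKM in the control library, 1.16-fold.

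**Figure D3:**
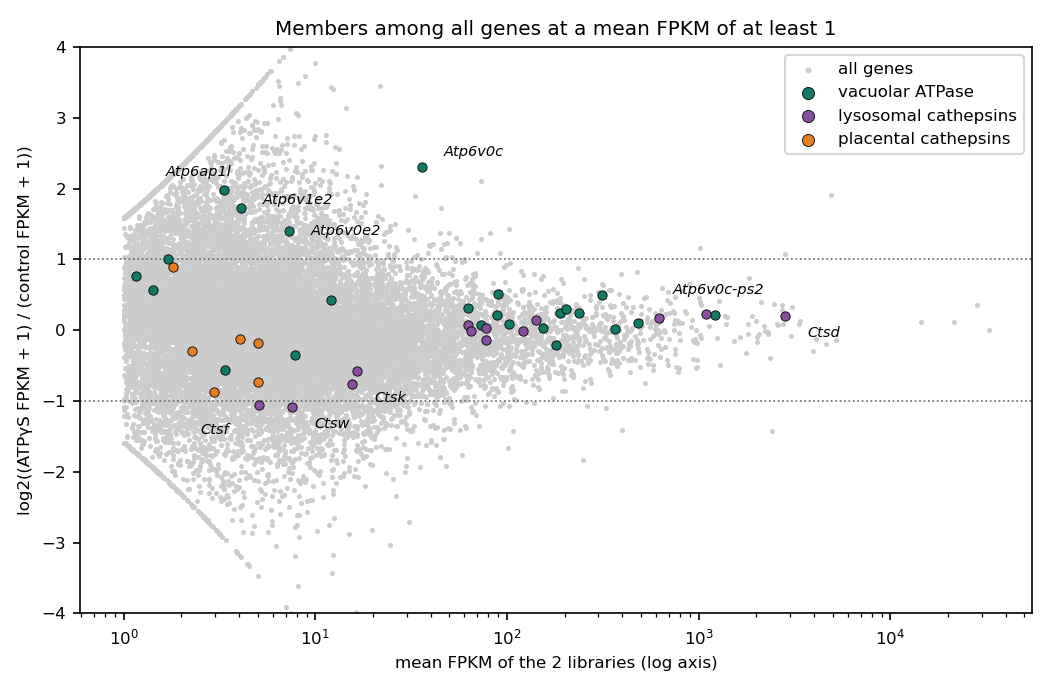
Log2 ratio of ATPγS over control (pseudocount 1) against the mean FPKM of both libraries (log axis) for all 18311 genes at a mean of at least 1 FPKM, with the members coloured by family and dotted lines at 2-fold; 58 genes, none of them a member, lie outside the plotted range of 4. Atp6v0c at 2.31 stands apart from the other members above 20 FPKM, which lie between -0.21 and 0.51.

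In the V1 sector, all 8 genes at 20 FPKM or more were higher in the ATPγS library, by 1.02-fold to 1.43-fold, and summed to 1343 FPKM with ATPγS and 1102 FPKM without it, 1.22-fold. Atp6v1f (rotor subunit F) was at 368 FPKM in the ATPγS library and 260 FPKM in the control library, 1.42-fold (1.25 to 1.60). Atp6v1c1 (stalk subunit C, which joins the sectors when the pump assembles) was at 106 FPKM with ATPγS and 74.1 FPKM without it, 1.43-fold (1.25 to 1.64). These were the largest ratios among the V1 genes at that level. The ATP-binding subunits had smaller ratios: Atp6v1a (catalytic A) was at 69.1 and 55.4 FPKM, 1.25-fold (1.11 to 1.39), and Atp6v1b2 (the B isoform of most tissues) at 206 and 173 FPKM, 1.19-fold (1.1 to 1.29), in the ATPγS and control libraries. Stalk subunit E, Atp6v1e1, was at 257 FPKM in the ATPγS library and 217 FPKM in the control library, 1.18-fold (1.07 to 1.31).

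For the remaining 3 the interval included 1 as deposited. Atp6v1g1 (stalk subunit G) was at 155 and 152 FPKM, Atp6v1d (rotor subunit D) at 106 and 99.5 FPKM and Atp6v1h (regulatory subunit H) at 75.2 and 71.5 FPKM in the ATPγS and control libraries. The median log2 ratio of the 8 was 0.25 as deposited. Both rescalings add to every ratio, and gave 0.30 at equal sums and 0.37 at a common median. The median of all genes at 20 FPKM or more rose as well, from -0.12 as deposited to -0.06 and 0.01. Some of the fragments of Atp6v1f and Atp6v1g1 could come from other loci, since 18.2% and 19.2% of their 50-base windows also occur in AC169506.3 and Gm13453.

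The tissue-restricted V1 isoforms were at or under the level of the placental cathepsins except for Atp6v1e2 in the ATPγS library. Atp6v1e2 (an E isoform known from testis) was at 6.85 FPKM with ATPγS and 1.37 FPKM without it, 4.99-fold (1.48 to 26.2), from an estimated 20 and 3 fragments. Of its exon bases, 29.4% lie opposite AC154492.1. Atp6v1c2 (a C isoform of kidney and lung) was at 2.60 and 0.802 FPKM, Atp6v1g2 (a neuronal G isoform) at 2.54 and 4.24 FPKM, and Atp6v1g3 (a kidney G isoform) at 0.324 and 0 FPKM in the ATPγS and control libraries. Atp6v1b1, the kidney and inner ear B isoform, was listed at 0 in both. The common isoform supplied most of each subunit's level: Atp6v1b2 100% and 100%, Atp6v1c1 97.6% and 98.9%, Atp6v1e1 97.4% and 99.4% and Atp6v1g1 98.4% and 97.3% in the ATPγS and control libraries, counting isoforms at a mean of at least 1 FPKM.

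In the V0 sector the c subunit, the proton-carrying ring protein, had the largest ratio of any member above 20 FPKM. Atp6v0c was at 60.8 FPKM in the ATPγS library and 11.5 FPKM in the control library, 5.30-fold (3.58 to 8.10), from an estimated 205 and 29 fragments. Most of the c subunit signal, however, was listed under a processed pseudogene copy, Atp6v0c-ps2, at 1307 FPKM with ATPγS and 1131 FPKM without it, 1.16-fold (1.07 to 1.25). Atp6v0c lies at chr17:24163866-24169702 on the minus strand and the copy at chr6:37806086-37806550 on the plus strand (GRCm38, GENCODE M21). Their coding sequences align over 465 bases with 1 mismatch, T111C, counted from the first coding base of Atp6v0c, and 99.8% identity. Coding bases 81 to 140 are shown for both because short reads over most of this sequence match either locus, with the capital marking the single differing base.
Atp6v0c: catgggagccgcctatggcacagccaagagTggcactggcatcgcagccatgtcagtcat
Atp6v0c-ps2: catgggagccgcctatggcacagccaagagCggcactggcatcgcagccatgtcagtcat

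Of the 50-base windows of the copy, 90.1% (375 of 416) also occur in another gene, and of those of the Atp6v0c transcript 32.5% (368 of 1134). Reads from the coding part of Atp6v0c can therefore be listed under either symbol, and the levels of both are uncertain. Taken as a pair, they were at 1368 FPKM in the ATPγS library and 1142 FPKM in the control library, 1.20-fold, with Atp6v0c holding 4.44% and 1.0% of the sum. By estimated fragments the pair was 1.26-fold (1.17 to 1.36) with a copy length of 465 bases and 1.20-fold (1.14 to 1.26) with 1133 bases, the span given by RefSeq. The shared windows were counted against the copy of 465 bases, so sharing over the span of 1133 bases was not measured. Whether the 5.30-fold ratio of Atp6v0c alone reflects its own transcript or the assignment of reads between the loci was not tested.

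Other V0 subunits differed less. Atp6v0e (a small membrane subunit) was at 500.0 FPKM in the ATPγS library and 467 FPKM in the control library, 1.07-fold (0.98 to 1.17), and Atp6v0b (the c'' ring subunit) at 369 and 366 FPKM, 1.01-fold (0.92 to 1.11). Atp6v0d1 (which couples the ring to the rotor) was at 95.7 FPKM with ATPγS and 82.5 FPKM without it, 1.16-fold (0.997 to 1.35). For these 3 genes the interval included 1 as deposited. Opposite Atp6v0b, Gm12841 covers 11.8% of all its annotated exon bases, and 2.42% of the 50-base windows of the Atp6v0b transcript occur in another gene. Atp6v0e2 (a second e isoform, known from brain) was at 11.03 FPKM in the ATPγS library and 3.57 FPKM in the control library, 3.09-fold (1.65 to 5.83), from an estimated 56 and 14 fragments, and Atp6v0d2 (a d isoform of osteoclasts and kidney) was at 1.89 and 0.948 FPKM. As for V1, the common isoform led: Atp6v0d1 supplied 98.1% and 98.9% of subunit d and Atp6v0e 97.8% and 99.2% of subunit e in the ATPγS and control libraries.

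The a subunit was split among isoforms. Atp6v0a1 was at 14.0 FPKM with ATPγS and 10.1 FPKM without it, 1.38-fold (1.06 to 1.82), Atp6v0a2 (known from the Golgi and endosomes) at 6.75 and 8.88 FPKM, 0.76-fold (0.57 to 1.02), and Atp6v0a4 (a kidney isoform) at 1.73 and 0.605 FPKM. The a3 isoform carries the symbol Tcirg1, which the rule does not match, and is known from osteoclasts and from the lysosomes of macrophages. Tcirg1 was at 32.2 FPKM in the ATPγS library and 16.6 FPKM in the control library, 1.94-fold (1.54 to 2.44). It made up 58.9% of the summed a subunit level in the ATPγS library and 45.8% in the control library, Atp6v0a1 25.6% and 27.9%, and Atp6v0a2 12.4% and 24.6%. The 4 isoforms together were at 54.6 FPKM with ATPγS and 36.2 FPKM without it.

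**Figure D4:**
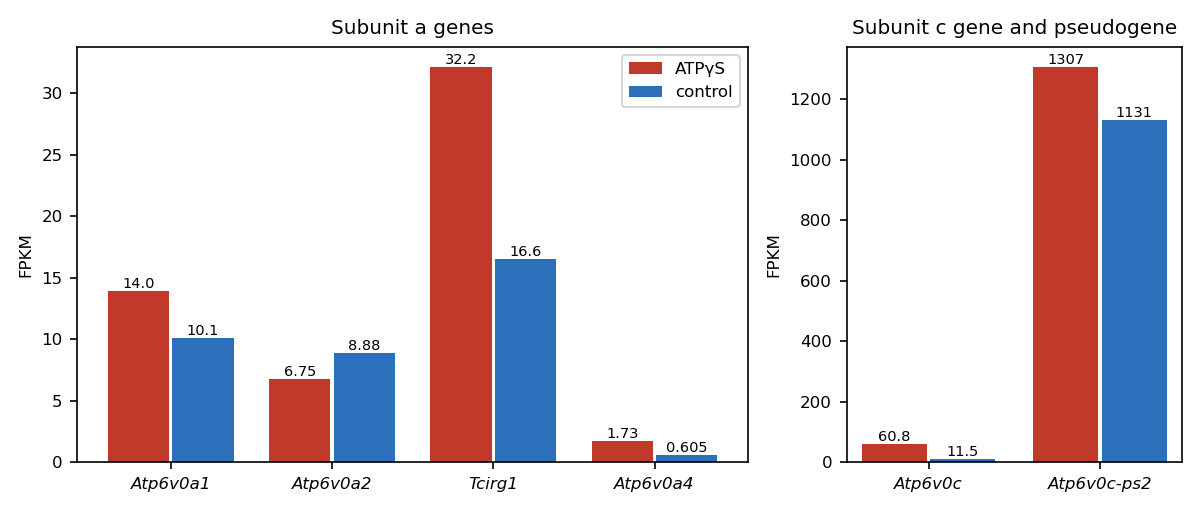
FPKM level (bars, linear axes that start at 0) of the 4 subunit a genes and of the subunit c gene and its pseudogene copy in the ATPγS and control libraries (n = 1 each). Tcirg1 is the highest subunit a gene in both libraries, and Atp6v0c-ps2 stands far above Atp6v0c.

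The accessory genes went different ways. Atp6ap2 was at 224 FPKM in the ATPγS library and 182 FPKM in the control library, 1.23-fold (1.13 to 1.34). Atp6ap1 was at 167 FPKM with ATPγS and 193 FPKM without it, 0.86-fold (0.79 to 0.94). As deposited, it was the vacuolar ATPase gene at 20 FPKM or more with a log2 ratio below 0 and an interval below 1. Its relative Atp6ap1l was at 5.91 and 0.752 FPKM in the ATPγS and control libraries, 7.86-fold (1.82 to 66.1), from an estimated 20 and 2 fragments. Of the 4 vacuolar ATPase genes that passed 2-fold, Atp6v0c alone was above the highest placental cathepsin value in both libraries.

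Promoters were searched for CACGTG, the E-box at the centre of the CLEAR element to which TFEB and TFE3 are known to bind; it reads the same on both strands. RefSeq promoters (GRCm38.p6, 250 bases before to 50 bases after the start) were matched for 36 of the 49 members. CACGTG was found in 7.24% of all 27025 promoters, in 8.61% of the 13782 of genes at a mean of at least 1 FPKM, in 33.3% of the matched lysosomal cathepsins (3 of 9), in 22.2% of the vacuolar ATPase genes (4 of 18) and in 1 of 9 placental cathepsins. The extended form TCACGTGA was found in 1.01% of all promoters and in those of Ctsd, Atp6v0d1, Atp6v0e and Atp6v1a, and the full palindromic CLEAR element in 0.359% of all and in 0 members. Both longer forms contain CACGTG, so these counts overlap. The promoters of the most abundant cathepsin and of 4 pump subunits are shown on the gene's strand as examples, with CACGTG in capitals. The Ctsd stretch is chr7:142387828-142388077 (minus strand), with motifs 245 and 98 bases before the start. The others are 46 to 50 bases around the motif: Atp6v1a at chr16:44139361-44139410 (minus strand), Atp6v0b at chr4:117887336-117887385 (minus strand), Atp6v0d1 at chr8:105566042-105566087 (minus strand) and Atp6v0e at chr17:26676379-26676424 (plus strand).
Ctsd: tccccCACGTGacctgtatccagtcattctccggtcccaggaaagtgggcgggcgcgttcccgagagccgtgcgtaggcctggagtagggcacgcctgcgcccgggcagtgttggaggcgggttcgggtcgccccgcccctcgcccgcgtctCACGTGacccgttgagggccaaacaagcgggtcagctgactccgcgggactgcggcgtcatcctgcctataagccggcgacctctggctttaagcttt
Atp6v1a: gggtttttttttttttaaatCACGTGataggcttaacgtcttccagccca
Atp6v0b: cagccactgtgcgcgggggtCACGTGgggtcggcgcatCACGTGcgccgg
Atp6v0d1: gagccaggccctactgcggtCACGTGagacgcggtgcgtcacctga
Atp6v0e: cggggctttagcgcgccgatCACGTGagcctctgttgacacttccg

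The motif begins 131 bases before the start in Atp6v1a, 36 and 18 before it in Atp6v0b, 3 before it in Atp6v0d1 and 3 after it in Atp6v0e. The remaining matches were in Ctsf (79 bases before the start), Ctsl (236) and Ctsll3 (13). Only members at 20 FPKM or more with a matched promoter were compared, which left out Ctsb, Atp6v1b2 and Atp6v1c1 among others. The 6 with CACGTG had a median log2 ratio of 0.15, between -0.02 and 0.31. The 10 without it had a median of 0.19, between -0.21 and 2.31, so the ranges overlapped.

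Other lysosomal genes, listed by function, did not share a direction. Of 41 acid hydrolases tested, 7 passed 2-fold upward (Galns, Arsa, Idua, Manba, Acp2, Ppt2 and Pla2g15) and 3 downward (Naglu, Ids and Smpd1), with a median log2 ratio of 0.07. Among all genes 13.8% passed upward and 9.91% downward, and the hydrolase counts are near those shares. Smpd1 (acid sphingomyelinase) was at 1.36 FPKM in the ATPγS library and 11.5 FPKM in the control library, with an interval of 0.05 to 0.23. Arsa (arylsulfatase A) was at 13.8 FPKM with ATPγS and 1.99 FPKM without it (4.0 to 12.6), and Pla2g15 (lysosomal phospholipase A2) at 36.3 and 7.98 FPKM (3.33 to 6.37). The most abundant, Psap (the saposin precursor), was at 351 FPKM in the ATPγS library and 300 FPKM in the control library.

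Among 24 lysosomal membrane genes, 2 passed 2-fold upward (Mcoln1 and Mfsd8) and 1 downward (Abca2), with a median of -0.10. Mcoln1 (the calcium channel TRPML1) was at 36.0 FPKM with ATPγS and 12.9 FPKM without it (2.07 to 3.80), Tmem175 (a potassium and proton channel) at 3.15 and 7.10 FPKM, Laptm4a at 60.2 and 93.3 FPKM and Cd63 (a tetraspanin) at 820 and 767 FPKM in the ATPγS and control libraries. Of 12 genes that sort enzymes to lysosomes, 1 was higher (Gnptab, which makes the mannose 6-phosphate tag) and 0 lower, with a median of -0.02. Here M6pr (the cation-dependent mannose 6-phosphate receptor) was at 198 FPKM in the ATPγS library and 148 FPKM in the control library (1.23 to 1.46), and Igf2r (the cation-independent receptor) at 6.18 and 11.5 FPKM. The adaptors Gga3 (10.8 and 5.70 FPKM) and Gga1 (8.64 and 4.87 FPKM) were higher in the ATPγS library, without reaching 2-fold on the log2 scale used.

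Among the 4 MiT/TFE transcription factors, 1 was at least 2-fold lower: Mitf, at 6.29 FPKM with ATPγS and 14.5 FPKM without it. Tfeb was at 37.9 and 31.8 FPKM, Tfe3 at 51.9 and 53.8 FPKM and Tfec at 11.1 and 7.17 FPKM in the ATPγS and control libraries. None of the 11 genes that anchor mTORC1 at the lysosome passed 2-fold, with a median of -0.02. Of these, Lamtor3 (31.8 and 63.5 FPKM) and Lamtor2 (52.4 and 86.2 FPKM) were lower and Rraga (43.4 and 26.9 FPKM) higher in the ATPγS library than in the control library, and Rragc was at 101 and 103 FPKM.

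Of 13 cathepsin inhibitors tested, 1 passed 2-fold upward, with a median of 0.14 over the list: Cst7 (cystatin F, an inhibitor of cathepsin C), at 12.98 FPKM in the ATPγS library and 4.69 FPKM in the control library, with an interval of 1.31 to 6.09. Cstb (cystatin B, a cytosolic inhibitor) was the most abundant, at 1493 FPKM with ATPγS and 1309 FPKM without it. Serpinb1a (an inhibitor of neutrophil serine proteases) was at 20.2 and 36.9 FPKM and Stfa3 (a stefin) at 42.5 and 27.5 FPKM in the ATPγS and control libraries. Among 11 tested genes of vacuolar ATPase subunits and assembly factors under other symbols, 0 were higher and 1 lower at 2-fold, with a median of -0.20. That gene was Ccdc115 (an assembly factor), at 8.36 FPKM with ATPγS and 24.8 FPKM without it (0.23 to 0.50), while its partner Tmem199 was at 27.1 and 15.4 FPKM and Rnasek at 159 and 150 FPKM. Over all these lists 11 of 116 tested genes passed 2-fold upward and 6 downward, with a median of -0.02, where 13.8% and 9.91% of all genes passed.

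**Figure D5:**
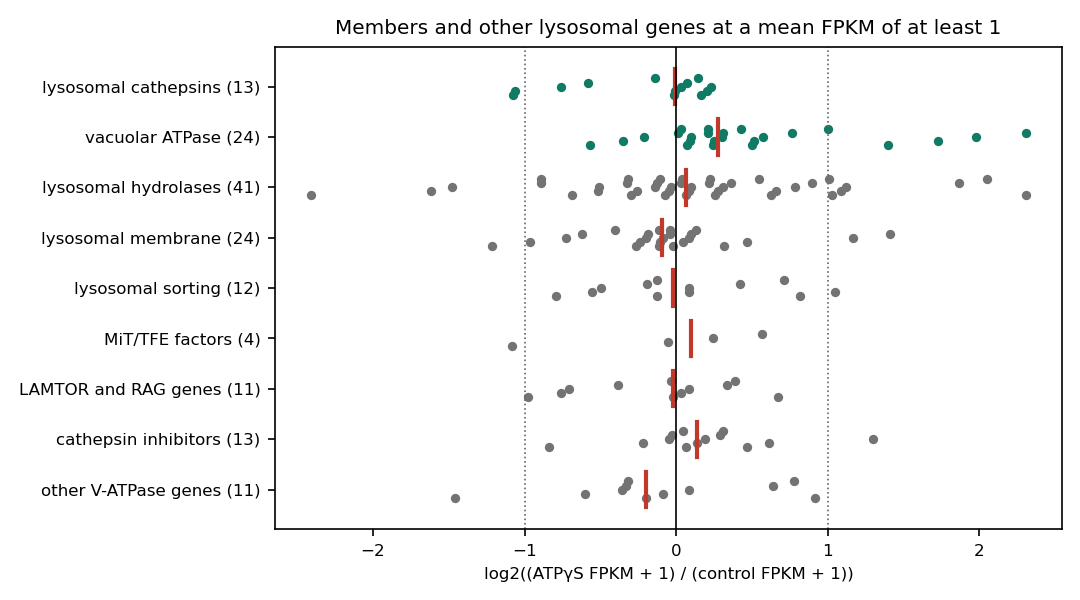
Log2 ratio of ATPγS over control (pseudocount 1) of each gene, as points, with the median as a line, for the lysosomal cathepsins, the vacuolar ATPase genes and the other lysosomal gene lists. The lists spread to both sides of 0, with medians between -0.20 for vacuolar ATPase genes under other symbols and 0.27 for the vacuolar ATPase genes among the members.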

How the data were processed

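Per the labels' protocols, RNA was taken up with RNeasy Mini, cDNA made with SMART-Seq HT and libraries with Nextera, which marks no strand. The submitters' processing notes name Cufflinks 2.2.1, TopHat2 2.0.13 with Bowtie2 2.2.3, and SAMtools 0.1.19, with build mm10. Annotation and tool options are not given in these sources. The deposited values are FPKM, 1 per symbol, so no count test was run and an exact 0 may be a failed estimate.

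Depth was recovered from 1310 receptor genes of smell and pheromones, whose FPKM multiplied by coding length moves in whole-fragment steps. The depth kept was the one that made the largest share of low values whole. Of the values under 10 fragments, 70.1% (ATPγS) and 70.3% (control) came out whole within 0.05. Chance gives 10% for a depth fixed in advance, and its share for a depth picked in this way was not computed. Fragments per gene, which the counting intervals use, were estimated from GENCODE M21 transcript lengths (23318 symbols matched, 95.8%, with all 49 members) and are approximate. PCR duplicates cannot be told from separate molecules.

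The log2 ratio used a pseudocount of 1, which understates differences of low genes, and counts took genes at a mean of at least 1 FPKM (43 of the 49 members, 38 of them at that level in both libraries). Printed folds are FPKM ratios without the pseudocount. Every member at that level is given. From each pathway list the 3 largest ratios at a mean of at least 5 FPKM and the most abundant gene are named, and from each marker list the 2 most abundant. Pathway genes past 2-fold are also listed by name. The members and lists were chosen with earlier results of these data known. Alternatives were pseudocounts of 0.1 and 5, 2 rescalings, no filter or 5 FPKM, and thresholds of 1.5-fold and 3-fold; leaving out Atp6v0c and its copy was added after seeing the data. The steps were tested on simulated data. Python 3.11.15, pandas 2.3.3, scipy 1.17.1 and Biopython 1.88 were used.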

Additional observations from a re-analysis of the deposited data

How the results depend on the processing

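Of the 43 tested members, Ctsa and Ctsl changed sign under both rescalings. A pseudocount cannot change a sign. Of 89 named genes, 5 at equal sums and 17 at a common median shifted at least as far as their counting error. Ctsd and Ctsb were among them at both rescalings. Whether an interval includes 1 therefore depends on the scaling for some genes. The cathepsins counted as lower numbered 0 at a pseudocount of 5, at rescaling to a common median and at 3-fold. Vacuolar ATPase genes counted as higher numbered 1 at a pseudocount of 5 and 2 at a minimum of 5 FPKM, and 3 without Atp6v0c and its copy. Placental cathepsins had 1 higher and 1 lower at a pseudocount of 0.1, and 1 and 2 at 1.5-fold. Over all lysosomal lists, 10 were lower at a pseudocount of 0.1, 3 higher and 3 lower at a pseudocount of 5, 6 higher at a minimum of 5 FPKM, 22 higher and 18 lower at 1.5-fold, and 3 and 2 at 3-fold. At equal sums the summed ratio of cysteine cathepsins was 1.16 and of aspartic ones 1.19. At a common median these were 1.21 and 1.25, with V1 at 1.33, V0 at 1.24 and the accessory genes at 1.15. With isoforms under 5 FPKM left out, the shares of Atp6v1c1, Atp6v1e1 and Atp6v0d1 in the ATPγS library and of Atp6v1g1 in both were 100%. Depth limits the low members: Atp6v1e2 and Atp6ap1l rest on 3 and 2 control fragments. No paired analysis was possible because each group has 1 library and no test was run.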
